A study of Mus musculus with 28 samples.

Results

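The genes of presynaptic vesicle release were followed in RNA from the CA1 field of the mouse hippocampus. The set was a given list of 32 gene symbols, matched to the gene identifiers of the deposited count files. It held 4 SNARE genes, 5 synaptotagmins, 9 genes of vesicle proteins, 5 genes of the active zone, 5 regulators of SNARE complexes, 3 vesicular transporters and the dynamin gene Dnm1. All 32 were found among 48709 identifiers, and all 32 passed the filter on low counts, which left 17009 genes for testing.

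Neurons release transmitter when a filled vesicle fuses with the membrane of the nerve terminal. The SNARE proteins of the vesicle and of the membrane zip together and drive fusion, synaptotagmins sense the calcium that triggers it, and complexins hold and then help the assembled SNAREs. Large scaffold proteins of the active zone keep vesicles and calcium channels at the release site, NSF and the SNAP adaptors take used SNAREs apart, and dynamin pinches off membrane to be recycled. The RNA of these genes lies mainly in the cell body, so CA1 tissue reads out pyramidal cells and interneurons whose terminals may lie elsewhere.

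Libraries of 3 groups were compared, all from mice 3 months old from which CA1 was dissected. Wildtype vehicle (10 libraries) were littermates that drank vehicle, transgenic vehicle (9 libraries) were CamkdeltaC transgenic mice that drank vehicle, and transgenic vorinostat (9 libraries) were CamkdeltaC transgenic mice that drank vorinostat, an inhibitor of histone deacetylases. Drinking began at 2 months of age and lasted 4 weeks, in mice of both sexes. As background, the CamkdeltaC mouse is known as a heart failure model with the kinase produced in heart muscle, so the transgene is not aimed at the neurons measured here. Wildtype mice on vorinostat were not analysed here. Whether every library is from its own mouse is not stated in the labels. A p-value here therefore refers to the spread between these libraries, which can be technical in part.

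Libraries held 20230085 to 33191857 counts, with a median of 23807060.5. All 7 genes of the CA1 pyramidal list were detected, with a summed level of 1098.8 to 1419 CPM (counts scaled to a common library total) in wildtype vehicle and a median of 1323 CPM. By a mitochondrial limit of 6%, chosen with earlier results of these data known, 4 libraries stood apart. Mitochondrially encoded genes held 6.39 to 7.48% of their counts, and 2.84 to 4.11% in the other 24. The 4 were vorinostat 6, 7 and 9 and wildtype vehicle 2. These 4 libraries had summed CA1 markers of 889 to 1159.5 CPM, against 1009 to 1531 CPM in the other 24, and summed erythroid markers of 77.4 to 135 CPM, against 18.0 to 57.1 CPM. In bulk tissue, fewer cells of a type and less RNA per cell cannot be told apart.

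Stretches before the transcription start were read from RefSeq entries on GRCm38.p6, with 250 bases before the start, for the 25 members that matched. Those of 3 members are shown as examples picked by their values, though no member was called in any comparison. Slc30a3 had the smallest p of the set, and Syn1 and Slc17a7 were among the members that were low together in the 4 libraries. Bases that the GENCODE gene model also spans are not printed. Capitals mark matches on either strand to the searched motifs, which were GGGCGG (the GC box), TGACG (core of the cAMP response element), CAGCACC (left part of the RE1 element) and TATAAA (the TATA box).
Slc30a3, chr5:31108245-31108494, minus strand: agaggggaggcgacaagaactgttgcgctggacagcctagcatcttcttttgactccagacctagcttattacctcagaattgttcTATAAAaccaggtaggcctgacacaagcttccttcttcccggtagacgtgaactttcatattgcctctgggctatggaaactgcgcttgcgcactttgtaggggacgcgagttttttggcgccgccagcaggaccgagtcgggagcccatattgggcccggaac
Slc17a7, chr7:45163671-45163920, plus strand: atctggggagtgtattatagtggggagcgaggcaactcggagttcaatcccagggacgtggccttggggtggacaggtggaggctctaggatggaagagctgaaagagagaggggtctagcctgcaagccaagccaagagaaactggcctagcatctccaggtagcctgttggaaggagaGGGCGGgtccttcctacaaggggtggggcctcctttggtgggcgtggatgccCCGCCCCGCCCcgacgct
Syn1, chrX:20921005-20921168, minus strand: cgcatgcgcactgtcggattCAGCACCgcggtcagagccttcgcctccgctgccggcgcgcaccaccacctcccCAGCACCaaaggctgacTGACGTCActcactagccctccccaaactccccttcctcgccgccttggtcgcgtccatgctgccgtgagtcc

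The Slc30a3 stretch held a TATA box and no GC box, the Slc17a7 stretch held 3 GC boxes, of which 2 overlap, and the Syn1 stretch held CAGCACC at 2 places. The capitals TGACGTCA in Syn1 are TGACG read on both strands, an overlapping pair. A GC box was found in 17 of the 25 members (68%), against 32.7% of 32851 promoter stretches of the same length. TGACG was in 6 (24%, against 17.8%), CAGCACC in 2 (8%, Syn1 and Napa, against 5.73%) and TATAAA in 2 (8%, Sv2b and Slc30a3, against 12.4%). The members' stretches had a median GC content of 61.2% and a median of 15 CpG dinucleotides, against 52.4% and 6 over all stretches. Each member counted by the entry nearest its GENCODE start, while every entry of every gene counted among the 32851. For Cplx2 and Syt11 that entry started 68793 and 2565 bases from the GENCODE start. A match is a string of letters and not a measured binding site.

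Levels between genes were compared as CPM per kb of merged exon in wildtype vehicle libraries (SD, n = 10). They covered a wide range, from Vamp2 at 300.1 ± 18.9 CPM per kb and Cplx1 at 300.1 ± 25.6 down to Syn3 at 0.844 ± 0.166. Vamp2 encodes synaptobrevin, the vesicle SNARE, Cplx1 a complexin, and Syn3 a synapsin. Next in order came Dnm1 (277), Snap25 (272), Cplx2 (253), Slc17a7 (235), Rab3a (234), Syt1 (208), Syt11 (178), Syn1 (176) and Syp (171), all in CPM per kb. Nsf (139), Sv2a (128), Syngr1 (117), Napb (96.4), Syn2 (89.2), Syngr3 (80.9), Sv2b (69.5), Napa (51.6), Syt7 (50.7), Stx1a (41.5), Unc13a (40.1), Syt4 (35.4), Bsn (31.99), Rims1 (25.0), Slc30a3 (21.4), Pclo (16.9) and Vamp1 (14.9) followed on the same scale. Syt2 (8.39), Slc17a6 (8.26) and Rims2 (7.47 CPM per kb) came last before Syn3. In 28 of the 31 neighbouring pairs the ranges over wildtype libraries overlapped. Neighbours were not compared within single libraries, so an overlap of ranges does not say whether the order of a pair holds in each library. The 3 pairs whose ranges were apart were Syp and Nsf, Vamp1 and Syt2, and Rims2 and Syn3, the last with an 8.85-fold gap.

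**Figure D1:**
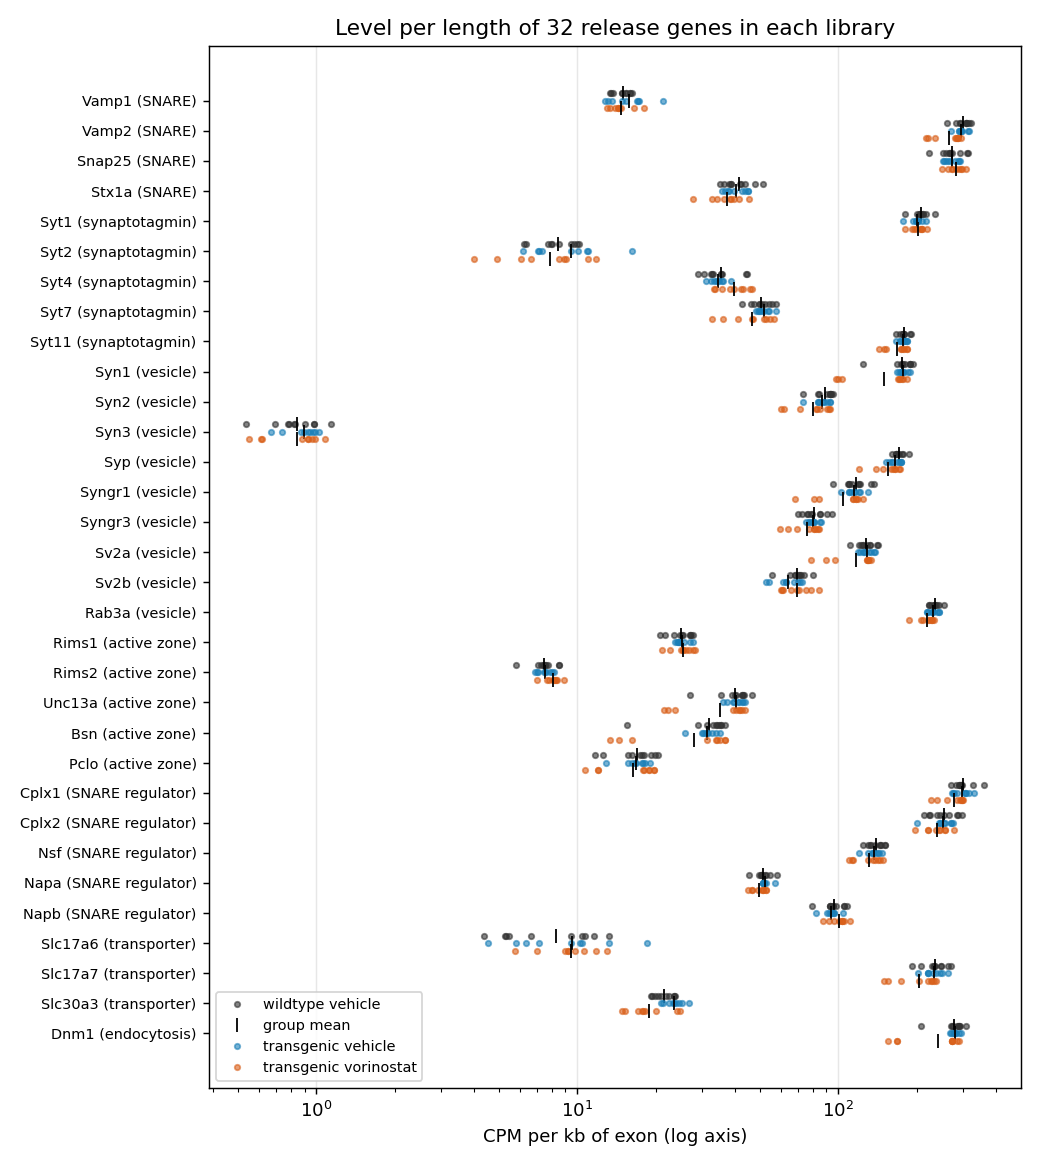
Level of each release gene in CPM per kb of merged exon (x axis, log scale), with 1 point per library, 3 rows of points per gene for wildtype vehicle, transgenic vehicle and transgenic vorinostat, and a bar at each group mean. The groups lie on top of each other for most genes, while genes differ from 0.844 to 300.1 CPM per kb in wildtype means.

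In some pairs of related genes, 1 was far above the other in RNA per length. Such a pair is not a whole family, as Syt11 was at 178 CPM per kb beside Syt1 at 208. Vamp2 was at 20.2 ± 1.87 times Vamp1, Syt1 at 25.4 ± 4.66 times Syt2, and Syn2 at 108 ± 15.6 times Syn3 in wildtype vehicle (SD, n = 10). Slc17a7, the vesicular glutamate transporter of most cortical and hippocampal neurons, was at 33.8 ± 15.8 times Slc17a6, its counterpart in thalamus and other deep structures, with single libraries from 14.4 to 61.3. Other pairs were closer to each other. Syn1 was at 1.96 ± 0.124 times Syn2, Bsn at 1.91 ± 0.364 times Pclo, Napb at 1.88 ± 0.257 times Napa, Rims1 at 3.36 ± 0.209 times Rims2, Syngr1 at 1.44 ± 0.0753 times Syngr3, Cplx2 at 0.847 ± 0.111 times Cplx1 and Sv2b at 0.547 ± 0.0670 times Sv2a. In all 3 groups the mean of each ratio was on the same side of 1.

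Among the SNARE genes, Vamp2 (ENSMUSG00000020894; GRCm38 chromosome 11, 69088490 to 69092384, plus strand) ran from 989 to 1231 CPM with a median of 1173 in wildtype vehicle. It ran from 1031 to 1204 CPM (median 1121) in transgenic vehicle and from 826 to 1121 CPM (median 1074) with vorinostat. The lowest 3 values of all libraries were vorinostat 7, 9 and 6, while the other 6 vorinostat libraries were within the range of the vehicle groups. Vamp1, the synaptobrevin found mostly outside forebrain excitatory cells, ran from 135.5 to 165 CPM in wildtype vehicle, 130.1 to 216 in transgenic vehicle and 132 to 183 with vorinostat. Snap25, the membrane SNARE of the terminal, was the most abundant member in CPM, with group means of 1849 ± 109 in transgenic vehicle and 1908 ± 125 with vorinostat (SD, n = 9 each). Stx1a, syntaxin of the terminal membrane, was at 111 ± 13.7, 108 ± 9.72 and 99.3 ± 14.0 CPM in wildtype vehicle, transgenic vehicle and vorinostat (SD, n = 10, 9 and 9).

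Of the synaptotagmins, Syt1 (ENSMUSG00000035864; chromosome 10, 108497650 to 109010982, minus strand), the fast calcium sensor of forebrain synapses, ran from 1495 to 1960 CPM with a median of 1724 in wildtype vehicle. Its range was 1469 to 1808 CPM (median 1670.3) in transgenic vehicle and 1506 to 1815 CPM (median 1708) with vorinostat, so the 3 groups overlapped almost throughout. Syt2, the fast sensor of hindbrain and of some interneurons, ran from 47.5 to 77.2, from 47.2 to 124 and from 30.7 to 90.2 CPM in the same order of groups. Syt4, a synaptotagmin that does not bind calcium as a fast sensor does, ran from 113 to 174 CPM (median 133) in wildtype vehicle, from 121 to 151 (median 134) in transgenic vehicle and from 130.05 to 182 (median 155) with vorinostat. The highest Syt4 values of the series were vorinostat 7 and 6, and wildtype vehicle 2 came next. Syt7, a slow calcium sensor, had group means of 379 ± 33.4, 388 ± 22.2 and 349 ± 63.2 CPM, and Syt11, a relative without calcium sensing, of 926 ± 34.3, 920.3 ± 30.2 and 877 ± 80.4 CPM (SD, n = 10, 9 and 9).

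Vesicle proteins held the widest range of levels. Rab3a, a small GTPase that brings vesicles to the active zone, ran from 494 to 563 CPM (median 519.9) in wildtype vehicle, 486 to 541.5 (median 510.4) in transgenic vehicle and 415 to 519 (median 497) with vorinostat. Syn3 ran from 6.60 to 14.0 CPM, 8.22 to 12.5 CPM and 6.77 to 13.2 CPM in that order, with single counts per library from 147 to 355. Syp (ENSMUSG00000031144; chromosome X, 7638471 to 7653256, plus strand), which encodes synaptophysin, ran from 839.7 to 975.5 CPM with a median of 877 in wildtype vehicle. Syp ran from 792 to 906 CPM (median 873) in transgenic vehicle and from 626 to 894 CPM (median 841) with vorinostat. Sv2b (ENSMUSG00000053025; chromosome 7, 75114894 to 75309262, minus strand), a vesicle glycoprotein gene, ran from 465 to 670.0 CPM (median 588) in wildtype vehicle, 442 to 610.3 (median 528) in transgenic vehicle and 506 to 707 (median 582) with vorinostat. The Sv2b ranges of the 3 groups overlapped for most of their length. The synapsins Syn1 and Syn2, which tether vesicles in reserve, were at 579 ± 64.9 and 627 ± 48.4 CPM in wildtype vehicle (SD, n = 10).

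At the active zone, Unc13a, which encodes the priming factor Munc13-1, ran from 341 to 587 CPM (median 524.5) in wildtype vehicle, 456.5 to 552 (median 519) in transgenic vehicle and 271 to 555 (median 512) with vorinostat. Its lowest 4 values were vorinostat 7, 6 and 9 and wildtype vehicle 2. Rims2, a RIM scaffold, ran from 60.3 to 88.2, from 71.2 to 84.5 and from 72.7 to 92.1 CPM in the same order. Rims1, its relative, had means of 184 ± 18.1, 185 ± 10.1 and 187 ± 16.9 CPM (SD, n = 10, 9 and 9). Bassoon and piccolo, the giant scaffolds encoded by Bsn and Pclo, had wildtype means of 509.8 ± 98.8 and 379 ± 65.4 CPM (SD, n = 10).

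Among SNARE regulators, Cplx1 ran from 592 to 788 CPM (median 642) in wildtype vehicle, 597 to 724 (median 668) in transgenic vehicle and 495 to 655.5 (median 639) with vorinostat. Napa, the alpha SNAP adaptor, ran from 172 to 220.4, from 194 to 216 and from 171 to 200.5 CPM. Cplx2, Nsf and Napb had wildtype means of 1247 ± 145, 1163 ± 77.5 and 679 ± 59.0 CPM (SD, n = 10). Dnm1, the neuronal dynamin, was at 1456 ± 143 CPM in wildtype, 1467 ± 44.6 in transgenic vehicle and 1259 ± 302 with vorinostat, a mean that 3 libraries drew down.

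Of the transporters, Slc17a7 (ENSMUSG00000070570; chromosome 7, 45163949 to 45176142, plus strand) ran from 1031 to 1450.1 CPM with a median of 1263 in wildtype vehicle. It ran from 1086 to 1423 CPM (median 1238) in transgenic vehicle and from 807 to 1273 CPM (median 1192) with vorinostat. Slc17a6 varied far more for its level, from 23.7 to 71.6, from 24.6 to 99.9 and from 31.0 to 70.2 CPM. Slc30a3 (ENSMUSG00000029151; chromosome 5, 31086106 to 31108237, minus strand), the transporter that fills glutamate vesicles with zinc, ran from 54.2 to 67.3 CPM (median 60.4) in wildtype vehicle. It ran from 59.3 to 75.8 CPM (median 66.3) in transgenic vehicle and from 41.9 to 70.2 CPM (median 50.8) with vorinostat. Of the 9 vorinostat values of Slc30a3, 7 were below every transgenic vehicle library, and those of vorinostat 3 and 5 (68.2 and 70.2 CPM) were inside the transgenic vehicle range.

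The first comparison, transgenic vehicle against wildtype vehicle, asks how the release genes stand in the heart failure model. None of the 32 members passed the threshold of adjusted p of 0.05 in edgeR's quasi-likelihood test, where 0% of the 17009 genes were called. None had an unadjusted p under 0.05, as 227 genes did (1.33%), and DESeq2 called 0 genes with 205 under an unadjusted p of 0.05. Log2 fold changes of the members ran from -0.12 to 0.20, with a median of -0.01, and 13 of 32 were positive (40.6%), as were 50.1% of all genes. The smallest p belonged to Slc30a3 at a log2 fold change of 0.13 (SE 0.0772, p = 0.0966), Sv2b at -0.12 (SE 0.0714, p = 0.106) and Syt1 at -0.06 (SE 0.0468, p = 0.238), all with an adjusted p that rounds to 1 (0.999834) in edgeR. By role, 1 of 4 SNARE genes, 2 of 5 synaptotagmins, 3 of 9 vesicle genes, 3 of 5 active zone genes, 1 of 5 SNARE regulators, 2 of 3 transporters and Dnm1 had a positive value.

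In the second comparison, vorinostat against transgenic vehicle, most release genes had slightly negative fold changes and none passed. Of the 32 members, 25 were negative (78.1%, against 49.1% of all genes) and 7 positive (21.9%, against 50.9%), with a median log2 fold change of -0.09 against 0.00 over all genes and a range of -0.32 to 0.21. None was called, as 0% of the 17009 genes were in edgeR, and 6 had an unadjusted p under 0.05 (18.75%, against 14.4% or 2450 of all genes). DESeq2 called 1 gene, which was no member, and gave 2517 genes and 7 members an unadjusted p under 0.05. Negative values were found in 3 of 4 SNARE genes, 3 of 5 synaptotagmins, 8 of 9 vesicle genes, 3 of 5 active zone genes, 4 of 5 SNARE regulators, all 3 transporters and Dnm1. In the same comparison, all 4 tested erythroid markers were positive, with a median log2 fold change of 0.85, and all 4 had an unadjusted p under 0.05 with none called by edgeR. Of the 7 CA1 pyramidal markers, 6 were negative, with a median of -0.15 and 0 under an unadjusted p of 0.05. Summed erythroid markers ran from 21.1 to 106 CPM in wildtype vehicle, 18.0 to 46.2 in transgenic vehicle and 36.7 to 135 with vorinostat, with the untested Hba-a2 at or near 0 in every library. The part of these cells in the members' values was not tested.

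Slc30a3 was at 66.6 ± 5.22 CPM in transgenic vehicle and 53.4 ± 9.98 CPM with vorinostat (SD, n = 9 each). Its log2 fold change of -0.32 (SE 0.0795, 95% interval -0.48 to -0.15) had the smallest p of the set, with unadjusted p = 0.000395 and adjusted p = 0.344 in edgeR. Over all settings tried, that adjusted p ran from 0.164 to 0.966. Syt4 stood at 134.5 ± 8.74 and 155 ± 19.6 CPM (SD, n = 9 each). Its log2 fold change was 0.21 (SE 0.0773, p = 0.0112, adjusted p = 0.344 in edgeR). Vamp2 stood at 1127 ± 51.6 and 1011 ± 120 CPM (SD, n = 9 each), with a log2 value of -0.16 for the difference. The SE of that value was 0.0595, with p = 0.0131 and adjusted p = 0.344 in edgeR. The other members with an unadjusted p under 0.05 were Syn1 (-0.24), Dnm1 (-0.22) and Slc17a7 (-0.19, log2 fold changes).

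The third comparison, vorinostat against wildtype vehicle, gave much the same picture and shares its vorinostat libraries with the second, so it is no separate evidence. Again 25 of 32 members were negative (78.1%, against 48.3% of all genes) and 7 positive (21.9%, against 51.7%), with a median log2 fold change of -0.09 against 0.01 over all genes and a range of -0.23 to 0.20. None was called by edgeR, where 0% of genes were called, and 9 had an unadjusted p under 0.05 (28.1%, against 12.6% or 2142 of all genes). DESeq2 called 0 genes, with 2206 genes and 11 members under an unadjusted p of 0.05. Vamp2, at 1143 ± 71.9 CPM for wildtype vehicle (SD, n = 10), had the lowest p of the members. Its log2 fold change was -0.18 (SE 0.0580, p = 0.00452, adjusted p = 0.385 in edgeR). Slc17a7, at 1268 ± 127 CPM in wildtype vehicle (SD, n = 10) and 1094 ± 187 CPM with vorinostat (SD, n = 9), followed. It had a log2 fold change of -0.21 (SE 0.0816, p = 0.0137, adjusted p = 0.385 in edgeR). Syp, at 889.9 ± 38.2 CPM in wildtype vehicle (SD, n = 10) and 810.1 ± 88.2 CPM with vorinostat (SD, n = 9), came next. For Syp it was -0.14 (SE 0.0532, p = 0.0161, adjusted p = 0.385 in edgeR). The remaining 6 with an unadjusted p under 0.05 were Syt4 (0.18), Syn1 (-0.23), Syn2 (-0.16), Rab3a (-0.10), Slc30a3 (-0.18) and Dnm1 (-0.21, log2 fold changes). Here too the 4 tested erythroid markers were positive (median 0.89, 4 under an unadjusted p of 0.05), and 5 of 7 CA1 markers were negative (median -0.12, 0 under it). Their part was not tested.

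**Figure D2:**
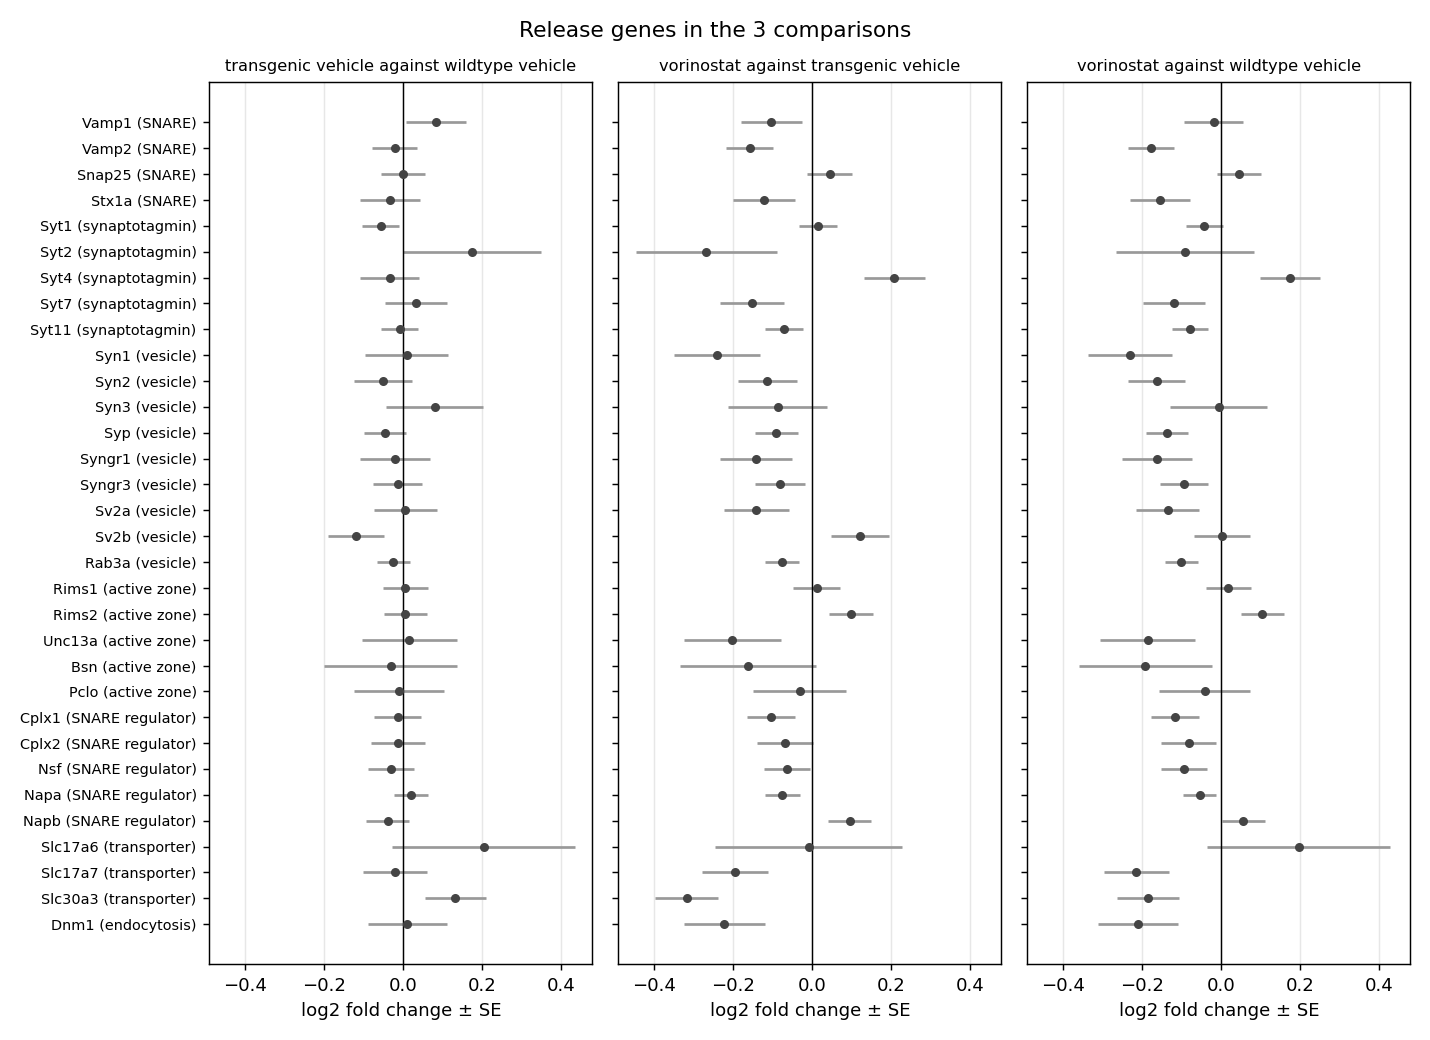
Log2 fold change of each release gene (point) with its standard error (bar) from the edgeR fit over 28 libraries, with 1 panel for each of the 3 comparisons in the order of the text. In the first panel the points lie around 0 (13 of 32 positive), and in the other panels 25 of 32 lie left of it, with none called.

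In none of the 3 comparisons did any member have groups that do not overlap, which was also so for 0% of all genes. Leaving out the 4 libraries with a high mitochondrial share changed the count of negative members. Without them, 17 of 32 members were positive and 15 negative for vorinostat against transgenic vehicle, with a median log2 fold change of 0.01, and 3 had an unadjusted p under 0.05. Against wildtype vehicle, 15 were positive and 17 negative, with a median of -0.01, and 2 had an unadjusted p under 0.05. The smallest adjusted p of a member in edgeR was then 0.966 and 0.929, and genes with an unadjusted p under 0.05 numbered 664 and 721 (3.84 and 4.17%, against 9.38 and 6.25% of members). Leaving out 1 of these vorinostat libraries at a time gave 24, 24 and 23 negative members against transgenic vehicle (without vorinostat 6, 7 and 9), with 3, 4 and 3 under an unadjusted p of 0.05 (9.38, 12.5 and 9.38%). Over all genes those settings gave 1296, 1062 and 1248 (7.58, 6.21 and 7.30%). Without transgenic vehicle 1 it was 3 members and 2080 genes (12.2%). Against wildtype vehicle, 23 members were negative without vorinostat 6, 7 or 9, and 4, 5 and 5 were under an unadjusted p of 0.05 (12.5, 15.6 and 15.6%) in place of 9. Over all genes it was then 1251, 1066 and 1293 (7.31, 6.24 and 7.56%). Without wildtype vehicle 2 that comparison gave 13 members (40.6%) and 3764 genes (22.2%), and without wildtype vehicle 5 it gave 7 members and 1278 genes (7.53%). With only its own groups in the fit it gave 5 members and 1423 genes (8.56%). For transgenic vehicle against wildtype vehicle, 22 of 32 members were negative without the 4 libraries, with a median of -0.03.

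Single genes moved by different amounts. Without the 4 libraries, Slc30a3 was at 57.5 ± 9.50 CPM with vorinostat (SD, n = 6). Its log2 fold change from transgenic vehicle was then -0.21 (SE 0.0751, 95% interval -0.37 to -0.06, p = 0.00865, adjusted p = 0.966 in edgeR). Syn1 stood at -0.02 in place of -0.24, Dnm1 at -0.01 in place of -0.22, Slc17a7 at -0.05 in place of -0.19, Vamp2 at -0.05 in place of -0.16 and Syt4 at 0.11 in place of 0.21 (log2 fold changes). Bsn had the opposite sign, at 0.14 (SE 0.0549, p = 0.0140, adjusted p = 0.966 in edgeR) in place of -0.16 (SE 0.173), and Unc13a stood at 0.04 in place of -0.20. Against wildtype vehicle, Vamp2 stood at -0.09 (SE 0.0359, p = 0.0151, adjusted p = 0.929 in edgeR) without them, Slc17a7 at -0.10 and Syp at -0.06.

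**Figure D3:**
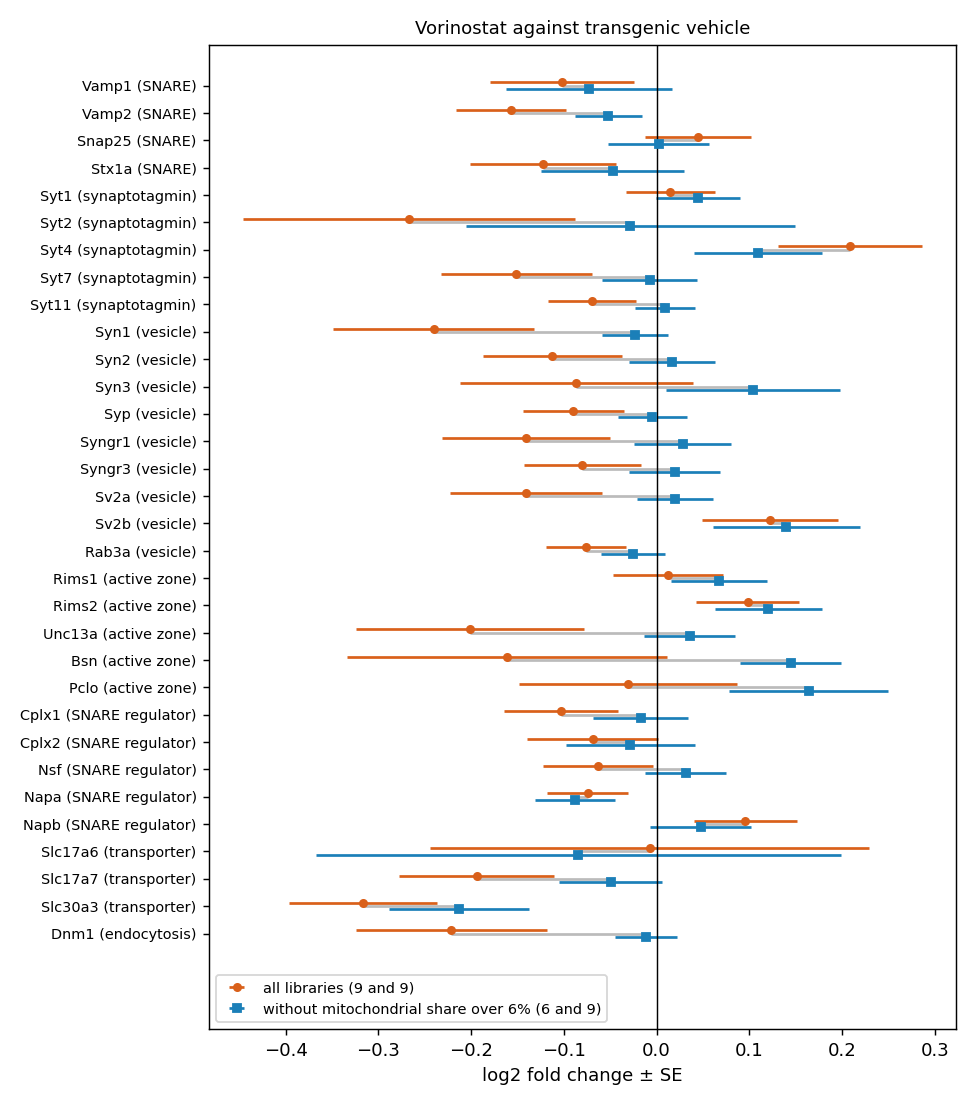
Log2 fold change of each release gene for vorinostat against transgenic vehicle with its standard error, from all libraries (circles) and without the libraries whose mitochondrial share was over 6% (squares). The squares lie nearer to 0 than the circles for Syn1 (-0.02 against -0.24) and Dnm1 (-0.01 against -0.22), Slc30a3 stays left of 0 at -0.21, and Bsn lies right of it at 0.14.

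In the 4 libraries themselves, release genes had a lower summed CPM. Sums are given in percent of the TMM-scaled total that CPM uses, which is not the raw count total. All 32 members summed to 1.54 to 1.76% of that total in the 4 libraries and to 1.88 to 2.04% in the other 24. By group the sum was 1.95 ± 0.0765% for wildtype vehicle (SD, n = 10), 1.92 ± 0.0432% for transgenic vehicle and 1.82 ± 0.184% with vorinostat (SD, n = 9 each). Of the 32 members, 11 (34.4%) were lower in all 4 libraries than in every other library, against 11.2% of all genes, and 0 were higher in all 4, against 9.99% of all genes. The 11 were Vamp2, Syt7, Syn1, Syn3, Syngr1, Sv2a, Unc13a, Bsn, Cplx1, Slc17a7 and Dnm1. This split was made by a property of the libraries, and it is uneven over the study's groups. Of the 4 libraries 3 were vorinostat, 1 was wildtype vehicle and none was transgenic vehicle, so the split and the drug are partly confounded. It is given as a description, and the part of each was not tested.

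The size of the gap differed between genes. Bsn (ENSMUSG00000032589; chromosome 9, 108096022 to 108190384, minus strand) was at 247, 212, 231 and 257 CPM in the 4 libraries (wildtype vehicle 2, then vorinostat 6, 7 and 9) and at 411 to 586 CPM in the other 24, a log2 ratio of medians of -1.18. Unc13a was at 271 to 341 against 449 to 587 CPM (-0.85), Syn1 at 322 to 411 against 552 to 639 CPM (-0.80), and Dnm1 at 815 to 1085 against 1409.7 to 1614 CPM (-0.74). The wildtype library was the highest of the 4 for Unc13a, Syn1 and Dnm1, though below all 24 others. In 6 members the median was higher in the 4 libraries, namely Snap25, Syt4, Rims2, Napa, Napb and Slc17a6. Syt4 was at 165.5 to 182 CPM in them and 113 to 172 CPM in the other 24 (log2 ratio of medians 0.39), and Snap25 at 1924 to 2115 against 1513 to 2130.2 CPM (0.17).

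**Figure D4:**
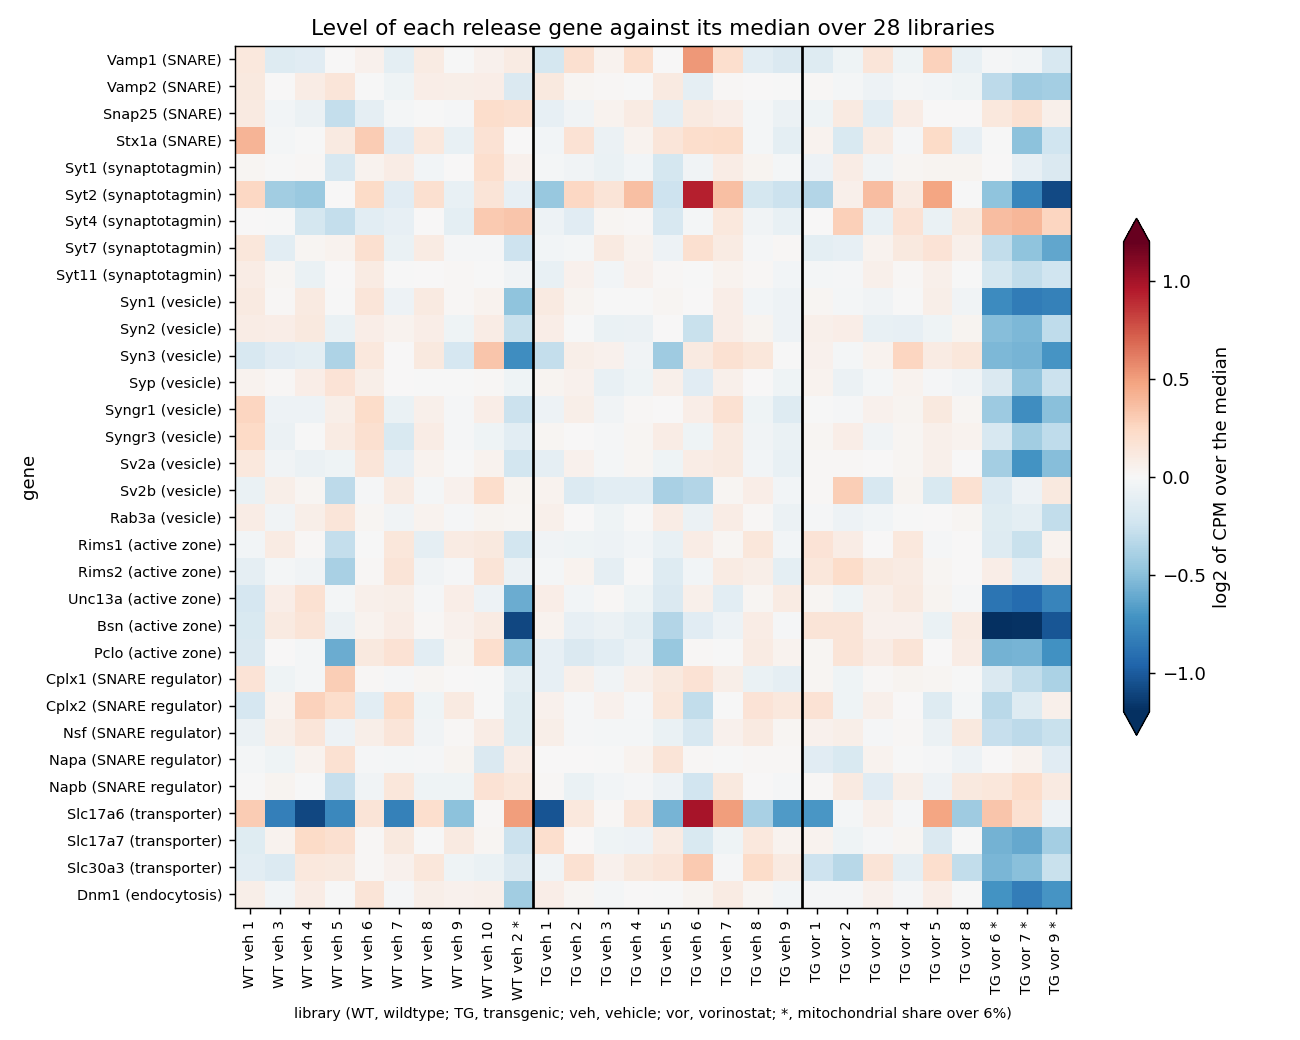
Level of each release gene (rows) in each of 28 libraries (columns, grouped as wildtype vehicle, transgenic vehicle and vorinostat), as log2 of CPM over the gene's median over all libraries, blue for lower and red for higher. The 4 columns marked with a star, with a mitochondrial share over 6%, are blue for Bsn, Unc13a, Syn1 and Dnm1 and red for Syt4, and transgenic vehicle 6 is red for Slc17a6 and Syt2.

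Spread within groups followed the same libraries for some members. The SD of log2 CPM within groups had a median of 0.166 over the 32 members, against 0.192 over all tested genes, and of 0.101 against 0.149 without the 4 libraries. Dnm1 had an SD of 0.239 with all libraries and 0.0498 without the 4, and Bsn 0.426 and 0.1099. For Slc17a6 the SD stayed at 0.536 and 0.547, above 96.7% and 97.4% of tested genes, and for Syt2 it was 0.413 and 0.346. Rab3a had the smallest spread of the set with all libraries, at 0.0754.

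As background, thalamic neurons lie close under the hippocampus and use Slc17a6, and Slc17a6, Syt2 and Vamp1 are all known to be high outside CA1 pyramidal cells. These 3 of the 32 members were taken for that known expression, with earlier results of these data known, and p-values were adjusted over the 3 alone. Each was highest of the transgenic vehicle group in the same library, transgenic vehicle 6, at 99.9, 124 and 216 CPM. That library also had the lowest Syn2, Cplx2 and Nsf of its group, at 513, 989 and 999.9 CPM. Across 28 libraries, log2 CPM of Slc17a6, Syt2 and Vamp1 was compared with the mean log2 CPM of 8 thalamic marker genes, which do not include them. The markers were Tcf7l2, Prkcd, Rora, Lef1, Calb2, Ramp3, Tnnt1 and Plekhg1, and whether they mark thalamic cells alone in this tissue was not tested. Pearson's r was 0.387 for Slc17a6 (permutation p = 0.0417, adjusted over 3 relations 0.0417), 0.406 for Syt2 (p = 0.0315, adjusted 0.0417) and 0.540 for Vamp1 (p = 0.00297, adjusted 0.00891). Spearman's rho was 0.435, 0.442 and 0.565 (permutation p = 0.0217, 0.0192 and 0.00234, adjusted 0.0217, 0.0217 and 0.00702). Without transgenic vehicle 6, an alternative chosen after seeing the data, r was 0.364 for Slc17a6 and 0.388 for Syt2, which no longer passed (permutation test, adjusted p = 0.0634 for both, n = 27). For Vamp1 it was 0.571 without that library (permutation test, adjusted p = 0.00597, n = 27).

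Without the 2 libraries farthest from the median marker level, vorinostat 4 and wildtype vehicle 1, r was 0.406, 0.447 and 0.547 for Slc17a6, Syt2 and Vamp1, and without the 4 libraries of high mitochondrial share it was 0.429, 0.441 and 0.560. Within wildtype vehicle alone r was 0.367, 0.360 and 0.475, which did not pass (permutation test, adjusted p = 0.318 for each, n = 10). Within transgenic vehicle r was 0.673, 0.703 and 0.673 (exact permutation test, adjusted p = 0.0453 for each, n = 9), and without transgenic vehicle 6 it was 0.608, 0.673 and 0.625, which did not pass (exact permutation test, adjusted p = 0.107 for each, n = 8). With vorinostat r was 0.663, 0.278 and 0.708, which did not pass (exact permutation test, adjusted p = 0.0750, 0.470 and 0.0750, n = 9). The summed thalamic markers ran from 109 to 134 CPM in wildtype vehicle, 105 to 134 in transgenic vehicle and 102 to 140.4 with vorinostat, with no gene of the list at 0. For transgenic vehicle against wildtype vehicle, 6 of 8 markers had negative log2 fold changes (median -0.08, 2 under an unadjusted p of 0.05 in edgeR). Slc17a6, Syt2 and Vamp1 were at 0.20, 0.18 and 0.08 there. For vorinostat, 5 of 8 markers were negative against transgenic vehicle (median -0.06) and 6 of 8 against wildtype vehicle (median -0.20). Transgenic vehicle 6 had a marker mean of 3.10 log2 CPM, below transgenic vehicle 3 at 3.14. The part of thalamic cells in the levels of these 3 genes was not tested beyond these relations.

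**Figure D5:**
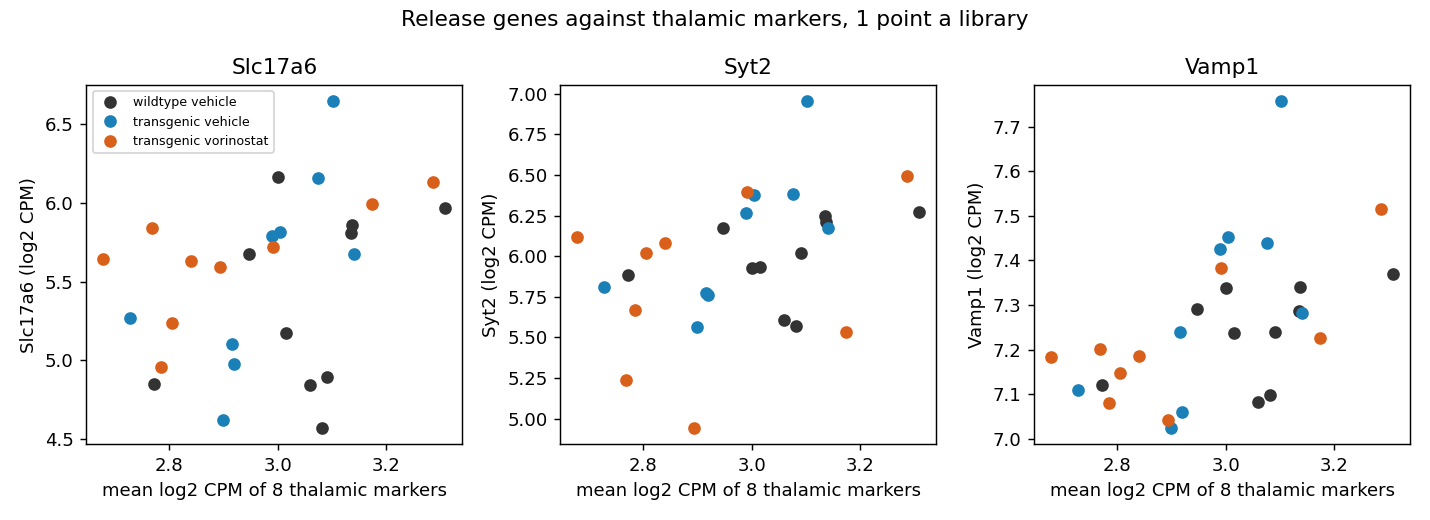
Log2 CPM of Slc17a6, Syt2 and Vamp1 (y axes) against the mean log2 CPM of 8 thalamic marker genes (x axis), with 1 point per library, coloured by group. The points rise to the right with wide scatter (r = 0.387, 0.406 and 0.540 over 28 libraries), and the highest point in each panel is transgenic vehicle 6.

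Markers of cells next to CA1 were set beside Slc30a3, which is also strong in dentate granule and CA3 cells. For vorinostat against transgenic vehicle, 5 of 6 dentate granule markers and 5 of 5 CA2 markers had negative log2 fold changes, with medians of -0.36 and -0.39, and 3 of 4 tested CA3 markers did, with a median of -0.17. None of these markers was called by edgeR, and 2, 3 and 0 of them had an unadjusted p under 0.05. Summed dentate markers ran from 112 to 242 CPM in wildtype vehicle, 99.96 to 211.5 in transgenic vehicle and 114 to 232 with vorinostat. Summed CA2 markers ran from 83.3 to 169, 96.9 to 162 and 83.0 to 126.5 CPM, and summed CA3 markers from 66.8 to 95.4, 72.6 to 90.5 and 62.9 to 85.4 CPM, with no gene of these lists at 0. Interneuron markers summed to 967 to 1053, 932 to 1049 and 947 to 1062 CPM. The part of these cells in the values of Slc30a3 and the other members was not tested.

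Other presynaptic genes were taken from 6 lists of 85 symbols in all, of which 84 matched an identifier and 83 were tested. None was called by edgeR in any comparison, with 0, 11 and 9 under an unadjusted p of 0.05 in the 3 comparisons, in the order of the text (0, 13.3 and 10.8%, against 1.33, 14.4 and 12.6% of all genes). In the same order, 40, 39 and 34 were positive (48.2, 47.0 and 41.0%, against 50.1, 50.9 and 51.7% of all genes) and the median log2 fold changes were -0.0015, -0.03 and -0.04. For vorinostat against transgenic vehicle, 9 of 11 further SNARE genes were positive (median 0.04), while 10 of 13 further synaptotagmins and 15 of 23 further endocytosis genes were negative (medians -0.09 and -0.04). The smallest p belonged to Napg, gamma SNAP, at 0.13 (SE 0.0545, p = 0.0201) and to Slc32a1, the vesicular transporter of GABA and glycine, at -0.22 (SE 0.0924, p = 0.0238), both with an adjusted p of 0.344 in edgeR. Against wildtype vehicle, Slc32a1 was at -0.23 (SE 0.0902, p = 0.0165) and Syt13 at -0.13 (SE 0.0502, p = 0.0166), with an adjusted p of 0.385 in edgeR. For transgenic vehicle against wildtype vehicle they were Syt6 at -0.24 (SE 0.123, p = 0.0644) and Sv2c at 0.36 (SE 0.193, p = 0.0727), with an adjusted p that rounds to 1 (0.999834) in edgeR.

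The authors' deposited table of adjusted expression values, which covers 18014 genes, held all 32 members. It comes from the same 28 libraries, so it is no separate evidence. Its group means include the 4 libraries of high mitochondrial share and were not computed without them. For vorinostat against transgenic vehicle, group means in the authors' deposited table were lower for 27 members and higher for 5 (15.6%, against 52.6% of all its genes), with a median difference of -0.09 in its own units. For vorinostat against wildtype vehicle, the authors' deposited table had 23 members lower and 9 higher (28.1%, against 58.5% of all its genes), with a median of -0.07. Between transgenic and wildtype vehicle, the authors' deposited table had 13 members lower and 19 higher (59.4%, against 59.9% of all its genes). Slc30a3 differed by -0.27 between vorinostat (6.44 ± 0.158) and transgenic vehicle (6.71 ± 0.0956) in the authors' deposited table (mean ± SD). Slc17a6 differed by 0.70 between transgenic vehicle (3.32 ± 0.445) and wildtype vehicle (2.62 ± 0.598) there, with SDs near the size of the difference. From the counts, the log2 fold change of Slc17a6 in that comparison was 0.20.

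The authors' deposited table of coexpression modules put the members in 10 of its 14 modules. In the authors' deposited table, 8 members were in the cyan module (25% of members, against 8.13% of its genes), namely Syt2, Syt7, Syt11, Syngr1, Syngr3, Sv2a, Cplx1 and Slc30a3. The green module of the authors' deposited table held 6 (18.75%, against 16.5%), namely Vamp2, Syn1, Syn2, Syp, Bsn and Dnm1, with membership scores from 0.811 for Syn2 to 0.963 for Syn1. Slc17a6, Vamp1 and Stx1a shared the blue module of the authors' deposited table, and Snap25 and Syt4 the lightcyan module. Of all members, Syt1 had the lowest membership score in the authors' deposited table, at 0.247 in the purple module.

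Some counts may hold reads of a neighbouring gene, since the library kit does not keep the strand. Exons of Syn3 overlap those of Timp3 over 1733 bases (14.1% of the Syn3 exon length), and Timp3 was at 49.9 CPM in wildtype vehicle against 10.4 CPM for Syn3. Syp shares 875 exon bases (16.8%) with Gm14703, at 2.28 CPM, and Syt4 shares 566 bases (14.5%) with Gm26658, at 0.571 CPM. Unc13a shares 495 bases (3.92%) with Colgalt1, at 78.7 CPM. How reads in shared exons were counted is not given in the sources used here, so the level of Syn3 in particular is uncertain.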

How the data were processed

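RNA-seq of CA1 tissue gave 28 libraries, grouped by their titles. For each library the authors deposited raw counts of reads per gene. The submitters' processing notes name the build mm10 and, as tools, STAR 2.5.2b, FastQC 0.11.5, Subread 1.5.1 and featureCounts. Annotation release, strand setting and treatment of reads matching several genes are not given in the sources used here. Polyadenylated RNA went into TruSeq RNA v2 libraries, per the labels' protocols. A deposited table for the whole series holds adjusted expression scores from a mixed linear model, per its name, a model whose terms the sources used here do not state, and another deposited table holds module membership scores. Both were only described.

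Genes were matched by symbol for 48349 of 48709 identifiers (99.3%), and coordinates and merged exon lengths are from GENCODE on GRCm38. No file equalled another (0 identical pairs), and the 117 pairs within groups differed by more than sampling noise, with chi-square per degree of freedom from 3.18 to 79.4. All 28 libraries entered 1 fit in edgeR 4.0.16 (R 4.3.3, limma 3.58.1), tested by quasi-likelihood, with TMM scaling, robust fitting and no covariates. Low counts were filtered at 10 per library and 15 in total. Within a contrast, p-values of all genes tested were adjusted after Benjamini and Hochberg, with a threshold of 0.05. The script was tested on simulated data. Permutation tests were two-sided, with 100000 resamples or all orderings for n under 10 (Python 3.11.15, scipy 1.17.1). CPM used TMM-scaled totals, with a prior count of 2 in log2 CPM.

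The members and the lists of other presynaptic genes and cell markers (CA1, CA2, CA3, dentate, thalamus, interneuron, astrocyte, oligodendrocyte, microglia, endothelial, choroid, erythroid), and the mitochondrial limit of 6%, were chosen with earlier results of these data known. Named members were those passing the threshold and the 3 with the smallest p in each contrast, and levels were also given for the highest and lowest member per length of each role; of the other presynaptic genes, those passing and the 2 with the smallest p. The further members named beside these, such as Bsn, Unc13a, Syn1 and Dnm1, were chosen after their values were seen. Alternatives were DESeq2 1.42.0, its size factors, no low-count filter, replicate blocks, 2 groups per fit, and libraries left out, of which leaving out transgenic vehicle 6 for the thalamic relations was chosen after seeing the data.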

Additional observations from a re-analysis of the deposited data

Results flagged for a closer look

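In 96 combinations of a member and a group, 9 had 1 library whose gap to its nearest neighbour was large for the range of its group by Dixon's test at the 95% level. Chance alone marks about 1 group in 20, so a few such values arise without any cause, and no explanation was weighed.

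Of the 9 values, 3 were in wildtype vehicle 2, a library of high mitochondrial share. Syn1 was at 411 CPM there, with the next lowest wildtype value at 552 CPM. Bsn was at 247 CPM, with the next at 463 CPM, and Dnm1 at 1085 CPM, with the next at 1412 CPM.

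Transgenic vehicle 6 held 3 more. Syt2 was highest of its group there at 124 CPM, with the next at 83.5 CPM. Syn2 was lowest at 513 CPM, with the next at 586 CPM, and Cplx2 lowest at 989 CPM, with the next at 1202 CPM.

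The other values were single. Rims2 was lowest of its group in wildtype vehicle 5 at 60.3 CPM, with the next at 73.6 CPM, and Napb in the same library at 557 CPM, with the next at 653 CPM. Napa was highest of its group in transgenic vehicle 5 at 216 CPM, with the next at 200.2 CPM.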

How the results depend on the processing

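No member was called in any comparison under any alternative. Over the 3 members with the smallest p in each comparison, 315 values kept their direction and side of the threshold, and 0 reversed. Other members did reverse, such as Bsn and Unc13a for vorinostat against transgenic vehicle without the libraries with a mitochondrial share over 6%. Negative members there numbered 15 in place of 25, while 48.3% of all genes were positive in place of 50.9%. Genes called for vorinostat against transgenic vehicle numbered 1 with DESeq2 in place of 0, and 0 to 1 with single libraries left out (1 without vorinostat 3). Against wildtype vehicle they ran from 0 to 3 with single libraries left out (3 without wildtype vehicle 2, 1 without wildtype vehicle 5). A replicate block on the title number called 1 gene in that comparison, and 0 in the other comparisons. The cause was not tested. Libraries with the same title number had deviations with r from -0.34 to 0.41 (27 pairs, median 0.06, 7 over 0.1). For the number in the sample description r ran from -0.21 to 0.23 (26 pairs, median 0.05). Pairs with different numbers were not compared, so whether either number pairs the samples was not tested. A block on the description number gave 10 members (31.2%) and 3088 genes (18.2%) an unadjusted p under 0.05 in edgeR for vorinostat against transgenic vehicle. Without a block it was 6 and 2450. Within groups, r with thalamic markers did not pass for Slc17a6, Syt2 and Vamp1 in wildtype vehicle (0.367, 0.360 and 0.475) or vorinostat (0.663, 0.278 and 0.708), with fewer samples. Without transgenic vehicle 6, left out after seeing the data, r did not pass over 27 libraries for Slc17a6 and Syt2 (0.364 and 0.388), nor within transgenic vehicle for the 3 genes (0.608, 0.673 and 0.625). Depth limits Syn3 most, with 147 to 355 counts.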
